A study of Mus musculus with 3 samples.

Results

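A set of 61 genes had a higher level over the first days of fibroblast reprogramming than before induction and kept at least most of that level in the mean of the last 2 days sampled. They were chosen from 50507 genes in the count table by their time-course levels alone. For each day the counts of the 3 replicates were summed and divided by their summed total and scaled to CPM, the usual unit of library-normalised counts. A member had a Day01 to Day03 mean of at least 100 CPM, at least 2-fold its Day00 level, and a Day05 and Day06 mean of at least 0.8 of the Day01 to Day03 mean. Names of mitochondrially encoded genes and names marked as pseudogenes by -ps were left out, which removed 1 gene that otherwise qualified. Of 1662 genes at the level minimum, 89 were gained and 28 of those were not kept. Because the rule averages Day05 and Day06, a single late day could be lower: 17 members were under 0.8 of their early mean on Day05 and 3 on Day06. The time-course values of the members are therefore a description of how they were chosen, and no test was run on them.

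The cells were primary mouse embryonic fibroblasts of the wild-type BL6 strain at passage 2. They carried a doxycycline-inducible lentiviral cassette of Oct4, Sox2, Klf4 and c-Myc together with the rtTA transactivator, and were induced in medium with 10% serum, 2 ug/mL doxycycline, 3 uM of the GSK3 inhibitor chiron, 0.25 uM of an Alk5 inhibitor, LIF, and ascorbic acid at 50 ug/mL. Bulk RNA was profiled by CEL-Seq2, a method that reads the 3′ end of a transcript and counts molecules by their identifiers, so that counts do not scale with transcript length. The study asked which chromatin and transcription regulators shape early reprogramming. A time course of cells that were replated but not transfected ran from Day00, before induction, to Day06, with 3 libraries a day. In the screen, cells were transfected with 40 nM of an siRNA pool, replated and induced 24 h later, and their RNA was taken on day 6. Its libraries were 98 of 33 siRNAs, with 3 libraries each except 2 of siMtf1, 3 of a non-targeting siRNA (nt) and 5 of a mock transfection without siRNA (Mock). All cells, controls included, were transduced with the same cassette at a multiplicity of infection of 1, and every transfected culture and every day after Day00 was induced. Per the study, cells were transfected in triplicate and the sequenced replicates were independent; whether they came from separate fibroblast preparations is not given in the sources used here, so p-values measure the spread between these libraries.

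The 127 libraries used held 29656 to 235292 counts, with a median of 73279. Summed over a day, Day00 held 227117 counts, and the members had 0 to 141 counts there with a median of 15, so that single-library values of the low members rest on a few molecules. Fibroblast markers were all detected on every day examined, and their summed level in single libraries was 5501 to 7435 CPM on Day00, 2589 to 3498 CPM on Day06 and 1593 to 2264 CPM in nt. Pluripotency and early colony markers summed to at most 21.2 CPM on Day00 and to 69.1 to 222 CPM on Day06. On Day06, 6 of these 10 markers were detected, and Nanog, Esrrb, Utf1 and Zfp42 were at 0. Endothelial markers were at 0 on Day00, Day03 and Day06, and macrophage markers were lower on Day06 (18.5 to 90.5 CPM) than on Day00 (115 to 221 CPM). Neural markers summed to 99.9 to 233 CPM on Day00, 31.2 to 174 CPM on Day03 and 186 to 271 CPM on Day06. Skeletal muscle markers summed to 40.2 to 92.2 CPM on Day00 and to 0 to 34.5 CPM on Day06. In bulk samples fewer cells of a type and less RNA per cell cannot be told apart. The siRNA targets could not be checked well: 15 of the 33 had no more than 3 counts in nt, and 19 of the 33 had a lower pooled CPM with their siRNA than in nt. For the siRNAs described below nt and siRNA held 9 and 7 counts of Wdr5 (30.2 and 24.4 CPM), 2 and 0 of Bard1, 4 and 0 of Pou5f1 and 22 and 12 of Ncor1 (73.7 and 46.1 CPM). Some targets went against their label: Brca1 had 2 counts in nt and 4 with siBrca1 (6.70 and 20.8 CPM), Hdac1 23 and 18 (77.1 and 128 CPM), Ep300 3 and 17 (10.1 and 42.7 CPM), Bptf 20 and 11 (67.0 and 77.9 CPM), Myc 2 and 2 (6.70 and 12.1 CPM), Eny2 32 and 35 (107 and 116 CPM) and Hat1 71 and 106 (238 and 242 CPM).

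Reprogramming begins when the 4 factors bind the fibroblast genome, and c-Myc in particular is known for raising genes of ribosome production, nucleotide synthesis and mitochondrial growth. Cells leaving the fibroblast state also proliferate faster, change their redox and metal handling, and remodel the cell surface and the actin cytoskeleton. Ribosomal protein genes have many processed pseudogenes, intronless copies whose sequence is close to that of the parent mRNA, which matters for reading any of them from short 3′ reads.

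By annotation the set held 43 protein-coding genes, 15 processed pseudogenes, 1 lincRNA (Gm26917) and 2 symbols that the annotation used here does not list, RP23-184H3.5 among them. The 59 members with a position lay on 18 chromosomes, and exons of 13 members overlapped those of another gene. Ncl, Rpl30 and Rplp2 had such an overlap on the same strand, where strand cannot separate the reads. In overlaps on the opposite strand, reads cannot be told apart where counting did not use strand. The pooled Day01 to Day03 mean ran from 101 CPM (Dnajc9) to 1313 CPM (Ncl), with a median of 171.5 CPM, and 38 members were below 200 CPM. The ratio of that mean to Day00 was 2.01 to 7.28 (median 2.31), against a median of 1.05 over the 1662 genes at the level minimum, and 14 members were at 3-fold or more. The highest ratios were those of Lgals3 (7.28), Mgst1 (6.35), Gm10221 (5.86), Prl2c3 (4.90), Gm26917 (4.89), Ide (4.20), Dusp14 (4.07), Mt2 (3.99) and Enah (3.63), besides Slc7a11, which had no count on Day00. Among Day01 to Day03, 26 members were highest on Day01, 24 on Day02 and 11 on Day03, so the early mean joins several time profiles.

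The members just inside and just outside the limits differed little. At the level limit, Dnajc9 and Polr2f were inside at 101 and 106 CPM, and Gm13292, Rpl3 and Mcm2 were outside at 99.4, 99.35 and 97.2 CPM. For the ratio to Day00, Gm6285, Gm13981 and Prdx1 were inside at 2.01, 2.01 and 2.02, and Anxa7 and Hspe1 were outside at 1.996 and 1.99. For the later level relative to the early one, Sesn3, Adam10 and Gm5297 were inside at 0.801, 0.809 and 0.812, and Pros1, Inhbb and Tiparp were outside at 0.784, 0.782 and 0.775. Membership also moved with the library set: 20 members reached 2-fold in each of the 3 replicates taken alone, and 23 stayed members under every scaling and with any 1 replicate left out. When the rule was applied to a pair of replicates and the genes it chose were read in the replicate left out, 35 of 76 reached 2-fold in replicate 1, 38 of 78 in replicate 2 and 26 of 101 in replicate 3, against 14.1%, 14.4% and 7.03% of all genes at the level minimum. Both the 2-fold gain and the kept share were reached by 31, 28 and 22 of these, against 9.58%, 9.73% and 4.68%. In 19 members every Day00 library lay below every Day01 to Day03 library, a pattern held by 3.01% of genes at the level minimum, and in 39 every Day00 library lay below every Day05 and Day06 library, against 10.3%; the rule used both contrasts.

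**Figure D1:**
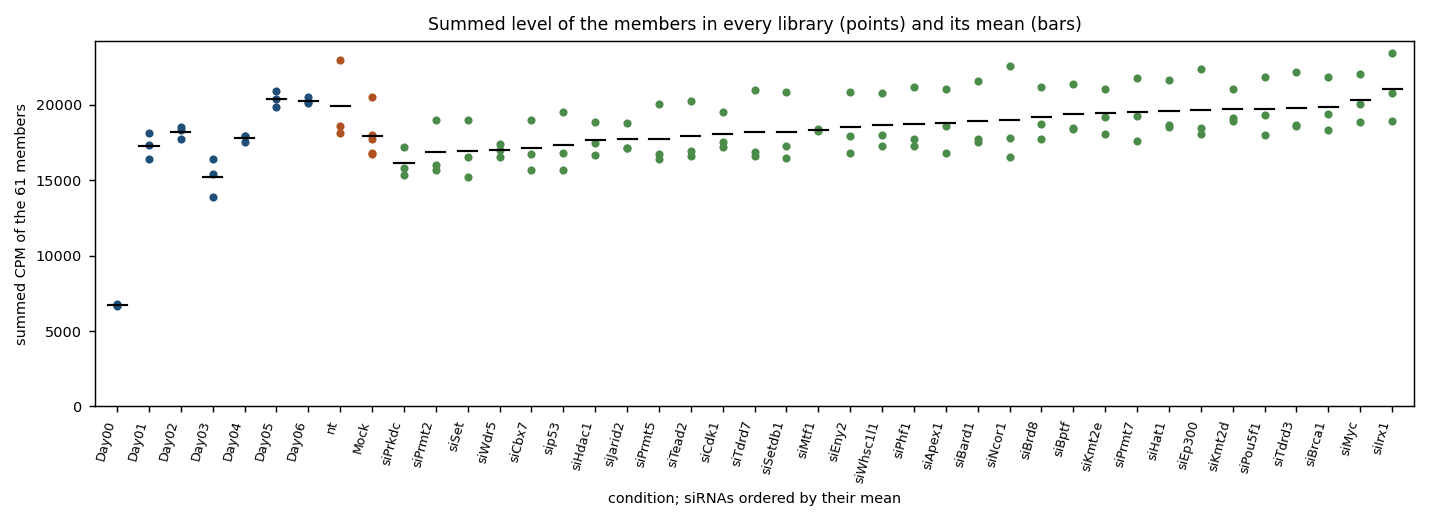
Summed level of the 61 members (vertical axis, CPM of the library total) in each library, with a bar at the mean of each condition; blue points are the time course, brown points nt and Mock, green points 32 of the 33 siRNAs ordered by their mean. Day00 sits near 6729 CPM, and the lowest of all later and transfected libraries, on Day03, is at 13879 CPM.

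Together the members made up 6672 to 6810 CPM in the 3 Day00 libraries. Their sum was 17277 ± 850 CPM on Day01 (mean ± SD, n = 3), 18188 ± 438 CPM on Day02, 15237 ± 1277 CPM on Day03, 17788 ± 218 CPM on Day04, 20390 ± 524 CPM on Day05 and 20269 ± 194 CPM on Day06. No library after Day00 came near the Day00 sum, and Day03 was the lowest of the induced days. The rule did not use Day04 but chose members for a low Day00 level, which raises any ratio to Day00. As a description, Day04 was at least 2-fold over Day00 in 50 of 61 members. The median ratio of Day04 to the Day01 to Day03 mean was 1.03 in the members, 0.549 in the 28 genes that were gained and not kept, and 0.916 over the genes at the level minimum, and 12 of the 28 were still at 2-fold on Day04. The rule split kept from not kept by a ratio to that same Day01 to Day03 mean. The contrast between these medians is therefore not independent of the rule. The mitochondrially encoded share of counts differed between days and enters every CPM value: it was 13.8 to 15.7% on Day00, 10.8 to 12.5% on Day01, 19.7 to 22.6% on Day03 and 16.0 to 16.6% on Day06. In the screen it was 22.8 to 26.3% in nt, 22.9 to 28.6% in Mock and 15.1 to 31.4% in the siRNA libraries, and its part in the levels was not tested beyond the change of scaling. With totals that leave those genes out, the median ratio of all genes at the level minimum shifted to 0.11 on the log2 scale and the median of the members to 2.39-fold, and with TMM-scaled totals the members had a median of 2.28-fold. At 2-fold or more over Day00 were 61 members with the first of these totals, 50 with TMM-scaled totals and 55 with the mean CPM of the 3 libraries.

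**Figure D2:**
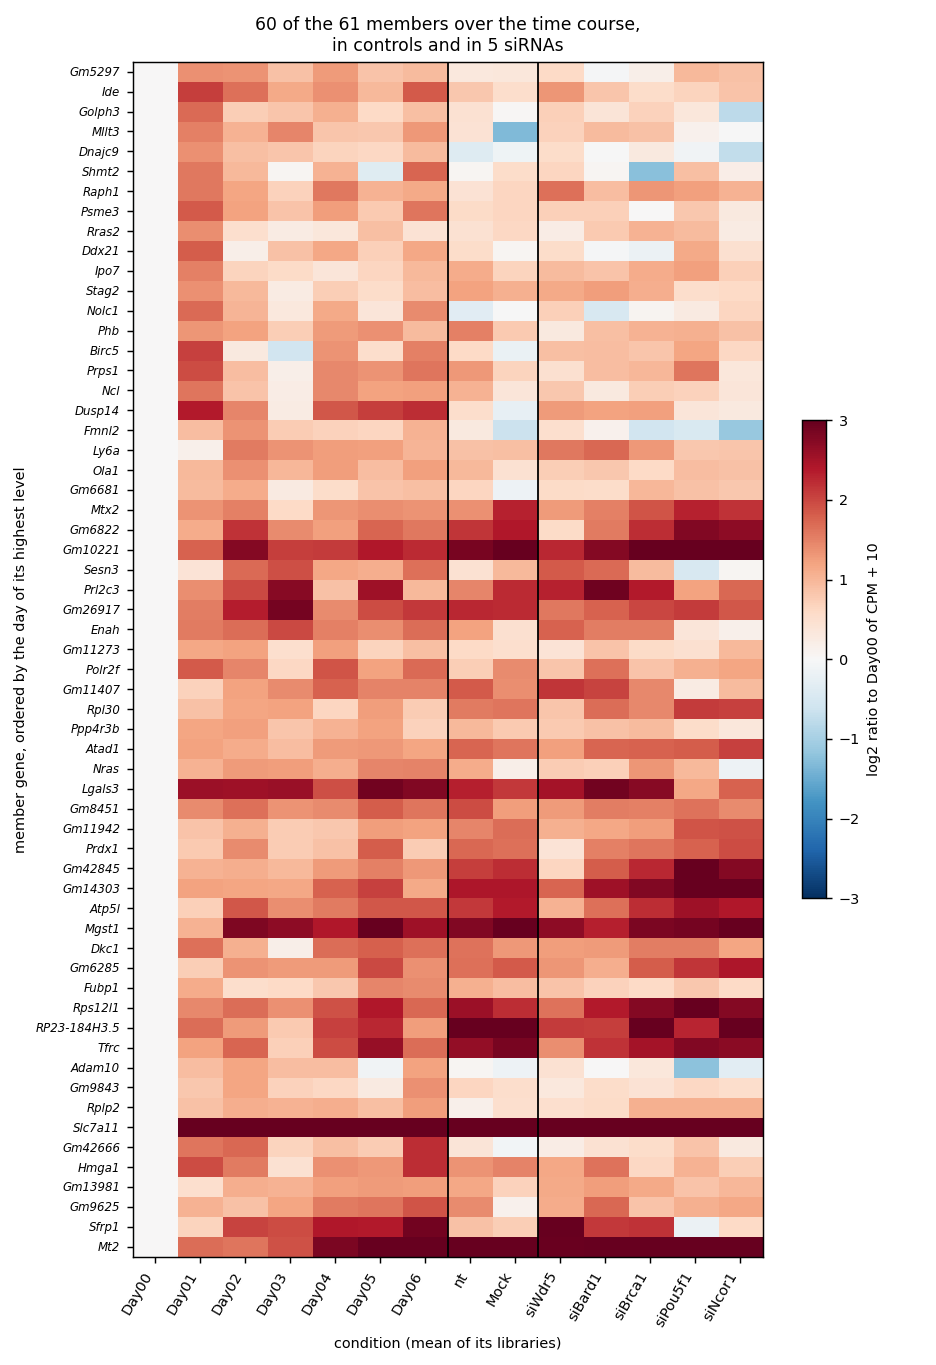
Level of 60 of the 61 members relative to Day00 (colour, log2 ratio of mean CPM plus 10, shown saturated beyond 3 either way) in each day, in nt and Mock, and in 5 siRNAs, with members ordered by the day of their highest pooled level. Rows at the top are highest on Day01, and rows at the bottom, ending with Sfrp1 and Mt2, are highest on Day06.

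Genes of the nucleolus, where ribosomal RNA is made and processed, gave 4 members out of 12 list genes at the level minimum: Ncl (nucleolin, a major nucleolar RNA-binding protein), Dkc1 (dyskerin, the pseudouridine synthase of the H/ACA particles), Nolc1 (a chaperone of small nucleolar particles) and Ddx21 (a nucleolar RNA helicase). The median ratio of the list was 1.85 early and 2.04 late, against 1.05 and 0.969 over all genes at the level minimum. Ncl had 683, 741 and 553 CPM in the Day00 libraries, 2192, 1950 and 1983 CPM on Day01, 718, 951 and 637 CPM on Day03, 1898, 1711 and 1770 CPM on Day04 and 1448, 1646 and 1616 CPM on Day06. Its Day01 and Day04 libraries did not overlap those of Day00, whereas the Day03 libraries did. Dkc1 was low on Day03 as well, with 335, 477 and 458 CPM on Day01, 172, 143 and 124 CPM on Day03 and 392, 462 and 408 CPM on Day06, beside 161, 106 and 115 CPM on Day00. Nolc1 and Ddx21 were lower and noisier. Their pooled levels were 57.2 and 70.5 CPM on Day00, 178 and 225 CPM on Day01 and 151 and 158 CPM on Day06, and Nolc1 was back at 62.5 CPM on Day03. Polr2f, a subunit shared by the nuclear RNA polymerases, went from 35.2 CPM on Day00 to 141.5 CPM on Day01 and 124 CPM on Day06. Npm1, Npm3 and Nhp2 of the same list stayed outside the set with ratios of 1.896, 1.93 and 1.81.

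Other members act in mitosis, nucleotide and one-carbon metabolism, chromatin and transport, and were grouped here by role after their values were seen. The lists gave 1 member of 6 mitosis genes at the level minimum (Birc5, list median 1.19 early), 1 of 10 nucleotide and polyamine genes (Prps1, 1.25) and 1 of 12 chromatin genes (Hmga1, 1.10), beside 1.05 over all genes at that minimum. Birc5, or survivin, a subunit of the chromosomal passenger complex in mitosis, had 361, 341 and 432 CPM on Day01, 46.8, 95.1 and 15.5 CPM on Day03 and 241, 314 and 221 CPM on Day06, against 60.2, 106 and 84.6 CPM on Day00. All Day01 and Day06 libraries of Birc5 were above Day00, and those of Day03 were not. Prps1, which makes the sugar phosphate donor of nucleotide synthesis, stood at 57.2 CPM on Day00, 236 CPM on Day01, 66.4 CPM on Day03 and 158 CPM on Day06. Shmt2, the mitochondrial serine hydroxymethyltransferase of one-carbon metabolism, was at 168 CPM on Day01 and 166 CPM on Day06 but at 46.9 CPM on Day03 and 30.1 CPM on Day05, the latter below its 44.0 CPM on Day00. Hmga1, an architectural chromatin protein, had 60.2, 63.6 and 46.1 CPM on Day00, 284, 273 and 191 CPM on Day01 and 302, 444 and 159 CPM on Day06, and no Day06 library reached down to Day00. The pooled level of Hmga1 was highest on Day06, and that of Fubp1 and Ppp4r3b on Day05. Psme3, the nuclear proteasome activator, and Ipo7, an importin of ribosomal proteins, were highest on Day01 at 262 and 199 CPM and stood at 226 and 139.5 CPM on Day06. Stag2 (cohesin), Dnajc9 (a histone co-chaperone), Fubp1 (a single-stranded DNA binding regulator), Mllt3 (an acyl-lysine reader of elongation complexes) and Ppp4r3b (a phosphatase 4 subunit), had ratios of 2.05 to 2.78.

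**Figure D3:**
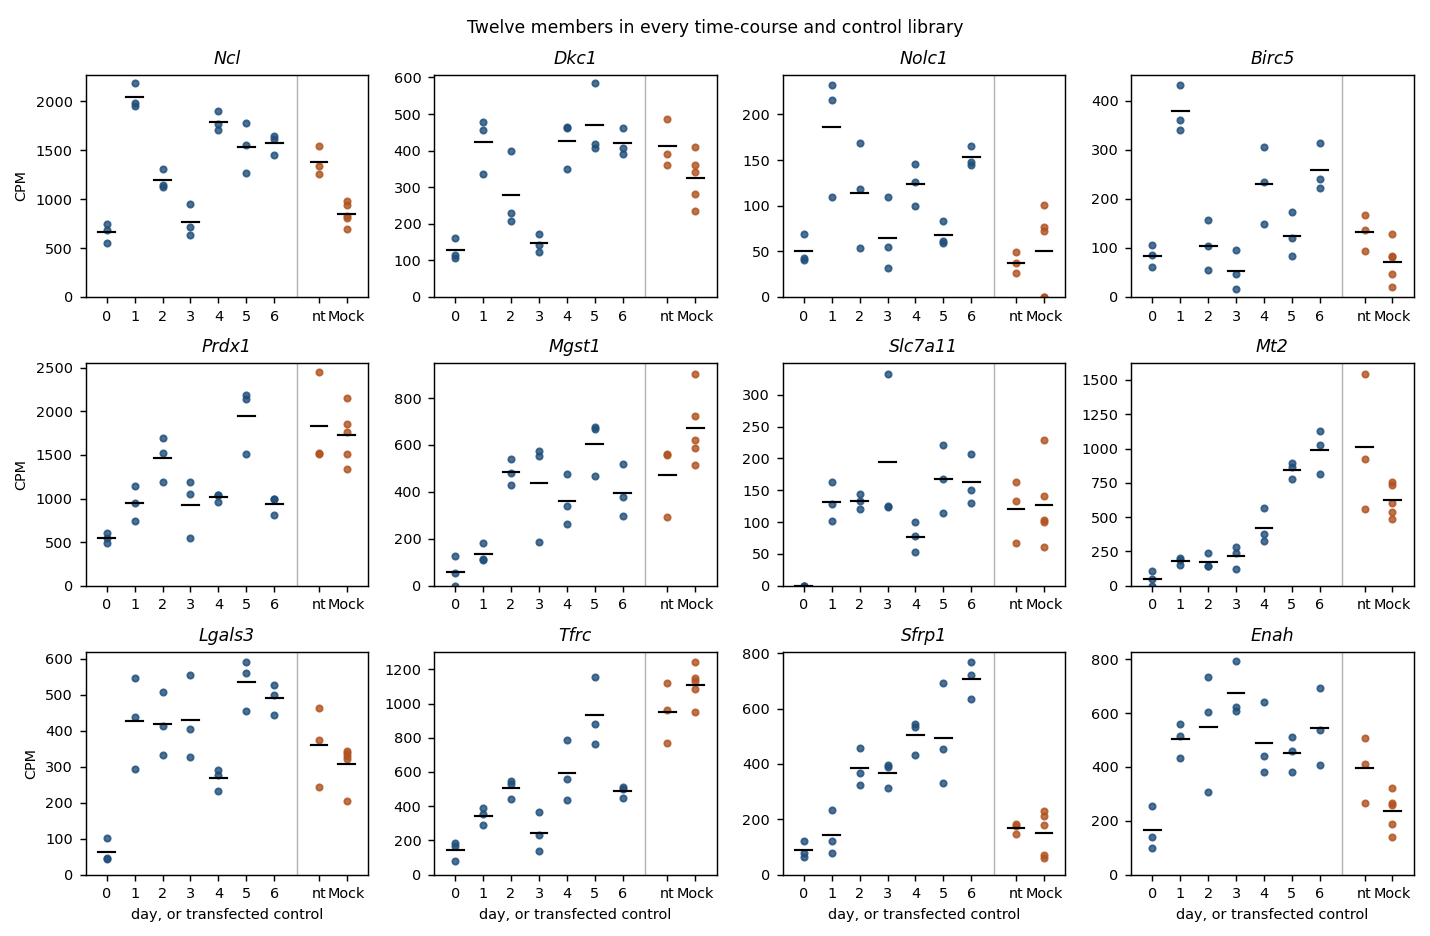
Level in CPM (vertical axes, linear, from 0) of 12 members in each library of the 7 days (blue) and in nt and Mock (brown), with a bar at the mean of each group. Ncl, Nolc1 and Birc5 have their highest mean on Day01, Dkc1 on Day05, and all 4 have their lowest mean among the induced days on Day03, whereas Mt2 and Sfrp1 go on to their highest level on Day06 and nt and Mock of Sfrp1 lie below Day02.

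A second group handles oxidants, cystine and metals. Slc7a11, the cystine and glutamate exchanger that supplies cysteine for glutathione, had 0 of 227117 counts on Day00 and 129, 164 and 102 CPM on Day01, 125, 333 and 124 CPM on Day03, 52.7, 77.8 and 99.5 CPM on Day04 and 151, 129 and 207 CPM on Day06. Against a floor of 3 counts over the Day00 libraries (13.2 CPM), its pooled level was at least 11.1-fold higher on Day01 to Day03 and at least 12.5-fold higher on Day05 and Day06, where the floor covers counting error only. Prdx1, an abundant peroxiredoxin that reduces peroxides, had 542, 487 and 607 CPM on Day00, 1192, 1521 and 1692 CPM on Day02, 1514, 2190 and 2138 CPM on Day05 and 814, 998 and 995 CPM on Day06. Its level thus differed by more between Day05 and Day06 than between Day06 and Day01 (748, 954 and 1144 CPM). Mgst1, a membrane-bound glutathione transferase, was at 0, 127 and 53.8 CPM on Day00 and at 181, 109 and 114 CPM on Day01, where the libraries still overlapped, and reached 482, 428 and 540 CPM on Day02. Mt2, a metallothionein that binds zinc and copper, had the highest late level relative to its early one, with 0, 106 and 46.1 CPM on Day00, 155, 191 and 203 CPM on Day01, 327, 564 and 377 CPM on Day04, 775, 898 and 866 CPM on Day05 and 814, 1128 and 1029 CPM on Day06. Its Day05 and Day06 mean was 4.78 times its Day01 to Day03 mean, the highest such ratio of the set, whose median was 1.07. Its neighbour Mt1 had a ratio to Day00 of 1.799 and a late ratio of 2.76 and so stayed outside. Tfrc, the transferrin receptor through which cells take up iron, had 80.3, 170 and 185 CPM on Day00, 141, 364 and 233 CPM on Day03 and 763, 1156 and 878 CPM on Day05. Sesn3, a sestrin, was at 0, 63.6 and 69.2 CPM on Day00 and at 172, 222 and 202 CPM on Day03.

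Not all genes of this response were kept. Of 14 genes of the antioxidant and metal list at the level minimum, 4 were gained and 2 of these, Prdx1 and Mt2, were members. Hmox1, heme oxygenase, had a ratio of 2.635 and a late level 0.309 of the early one, and Gclm, a subunit of the enzyme that starts glutathione synthesis, had 2.50 and 0.623. The list median was 1.79-fold early and 1.25-fold late. Of the ATF4 and amino acid list, Slc7a11 and Shmt2 were members out of 10 genes at the level minimum, and the list median was 1.33-fold early.

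Promoter sequences are shown because the set was gathered by shared timing and the cassette supplies Myc. RefSeq windows on GRCm38.p6 (250 bases before to 50 after the start) were found for 38 members, and 5 motifs were searched on both strands. The Myc E-box CACGTG was in 7 of the 38 genes (Adam10, Atp5l, Ipo7, Nras, Ola1, Phb and Psme3, none of the 4 nucleolar members), which is 18.4%, against 6.86% of 27025 genes. The metal response element, written TGCGCNC or TGCACNC, was in 34.2% against 23.8%, the antioxidant response element TGACNNNGC in 23.7% against 11.5%, the ATF4 element TGATGNAA in 5.26% against 3.91%, and the octamer ATGCAAAT in 7.89% against 1.81%. These are matches of letters in short windows of the reference and were not tested. The 27025 genes were not matched to the members by level, and the members were above them for all 5 motifs. The 250 bases before the start are printed for 5 members, 5′ to 3′ on the strand of the gene, with the motif named for each in capitals: the E-box in Phb (chr11:95666707-95666956, plus strand) and Ipo7 (chr7:110018065-110018314, plus strand), the ATF4 element in Slc7a11 (chr3:50443614-50443863, minus strand), the metal response element in Mt2 (chr8:94172368-94172617, plus strand) and the antioxidant element in Prdx1 (chr4:116685349-116685598, plus strand).
Phb: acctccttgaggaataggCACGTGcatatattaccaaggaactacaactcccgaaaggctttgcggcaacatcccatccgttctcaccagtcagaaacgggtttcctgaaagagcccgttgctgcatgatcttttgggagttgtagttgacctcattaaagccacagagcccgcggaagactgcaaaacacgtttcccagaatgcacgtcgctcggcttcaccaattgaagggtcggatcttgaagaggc
Ipo7: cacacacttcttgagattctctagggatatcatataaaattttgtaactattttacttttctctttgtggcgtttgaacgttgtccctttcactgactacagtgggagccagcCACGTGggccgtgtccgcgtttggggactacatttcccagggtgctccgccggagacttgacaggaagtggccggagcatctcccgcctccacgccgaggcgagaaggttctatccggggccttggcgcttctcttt
Slc7a11: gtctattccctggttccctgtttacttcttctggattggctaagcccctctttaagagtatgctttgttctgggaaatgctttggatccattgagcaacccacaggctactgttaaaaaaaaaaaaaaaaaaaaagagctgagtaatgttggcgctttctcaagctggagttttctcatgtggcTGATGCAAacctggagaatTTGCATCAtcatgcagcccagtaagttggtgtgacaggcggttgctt
Mt2: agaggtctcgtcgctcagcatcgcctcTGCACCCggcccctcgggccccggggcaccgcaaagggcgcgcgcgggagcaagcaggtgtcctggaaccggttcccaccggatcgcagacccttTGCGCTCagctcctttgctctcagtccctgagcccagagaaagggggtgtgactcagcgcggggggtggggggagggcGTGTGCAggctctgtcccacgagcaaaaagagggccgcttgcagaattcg
Prdx1: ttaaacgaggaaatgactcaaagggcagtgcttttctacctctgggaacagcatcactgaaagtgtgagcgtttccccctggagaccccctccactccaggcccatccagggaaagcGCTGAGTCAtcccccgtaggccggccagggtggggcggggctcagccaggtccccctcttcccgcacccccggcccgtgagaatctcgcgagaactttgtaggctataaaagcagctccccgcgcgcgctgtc

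The E-box began at position -232 in Phb and -137 in Ipo7, counted from the RefSeq start. Slc7a11 held 2 matches of the ATF4 element, at -66 and -47, in opposite orientation, and its octamer match overlaps the second. Mt2 held 3 matches of the metal response element, at -223, -128 and -50, and also a TGACNNNGC match that is not in capitals. The match in Prdx1 was at -133. Mt2 was thus the printed member with most matches of its motif, and Nras, Ola1 and Psme3 carried their E-box at -15, -122 and -44.

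Mitochondrial and ribosomal members had modest ratios. Phb (prohibitin, a scaffold of the inner membrane) had 20.1, 106 and 92.2 CPM on Day00 and 129, 218 and 242 CPM on Day01. Atp5l, subunit g of ATP synthase, went from 79.3 CPM on Day00 to 99.6 CPM on Day01 and 252 CPM on Day02, and Mtx2, a metaxin of the outer membrane, from 79.3 to 184 CPM on Day01. Atad1, an ATPase that clears misplaced proteins from that membrane, had 40.2, 84.7 and 53.8 CPM on Day00 and 155, 95.4 and 203 CPM on Day01, with no overlap. Of 30 respiratory chain genes at the level minimum Atp5l was the only member, and the list median was 1.21-fold early and 1.41-fold late. Of 56 cytoplasmic ribosomal protein genes Rpl30 and Rplp2 were members, with list medians of 1.28-fold and 1.70-fold. Rplp2, an acidic stalk protein of the large subunit, had 281, 233 and 277 CPM on Day00 and 593, 409 and 470 CPM on Day01, again with no overlap. None of the 18 translation factors, 20 cytosolic chaperones or 9 splicing factors at the level minimum was a member.

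Surface, secreted and cytoskeletal members, grouped by role after their values were seen, had ratios to Day00 of up to 7.28. The list of tubulins and actin regulators gave 0 members out of 10 genes at the level minimum, with a median ratio of 0.809 early and 0.647 late. Lgals3, galectin-3, a secreted and nuclear carbohydrate-binding protein with that ratio, had 100, 42.4 and 46.1 CPM on Day00, 438, 545 and 292 CPM on Day01, 232, 292 and 277 CPM on Day04 and 528, 499 and 442 CPM on Day06, and no induced library overlapped Day00. Enah, an Ena/VASP protein that extends actin filaments, had 100, 254 and 138 CPM on Day00 and 609, 792 and 621 CPM on Day03. Raph1 (lamellipodin, which recruits Ena/VASP proteins) and Fmnl2 (a formin) had ratios of 2.96 and 2.58. Ly6a, the surface antigen Sca-1, was at 241, 381 and 215 CPM on Day00, at 361, 286 and 280 CPM on Day01 and at 723, 989 and 819 CPM on Day02, so that its libraries first stood above Day00 on Day02. Sfrp1, a secreted Wnt antagonist, had 121, 63.6 and 76.9 CPM on Day00, 325, 458 and 369 CPM on Day02 and 769, 721 and 635 CPM on Day06. Prl2c3, a proliferin, varied from day to day, with 140.5, 21.2 and 76.9 CPM on Day00, 531, 618 and 590 CPM on Day03, 116, 97.2 and 249 CPM on Day04, 489, 554 and 484 CPM on Day05 and 286.5, 92.45 and 117 CPM on Day06, where its libraries overlapped those of Day00. Among signalling members, Rras2 was highest on Day01 at 608 CPM, Nras stayed between 189 and 229 CPM from Day01 to Day06, and Dusp14, a phosphatase of MAP kinases, had 215 CPM on Day01, 46.9 CPM on Day03 and 181 CPM on Day06. Adam10 (a membrane protease that sheds receptors), Ide (insulin-degrading enzyme), Golph3 (a Golgi protein) and Ola1 (an Obg-like ATPase) had ratios of 2.79, 4.20, 2.62 and 2.03.

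The 15 pseudogenes were examined with their parents, since a short 3′ read cannot always be placed between near-identical copies. By a BLAST search of the last 300 bases of transcripts, at 95% identity over 80% of that length, 25 members had a near-identical copy, and 14 of these were pseudogenes near a protein-coding gene, 10 of them with a ribosomal protein parent. When a member was summed with its copies, the family reached 2-fold in 9 of the 25 and not in 16. Gm42666, a copy of Rpl6, had a ratio of 2.38 alone and 1.39 with its family, and Gm6285, a copy of Rpl12, 2.01 and 1.22. Over the 14 pseudogenes the family ratio was between 1.22 and 2.95 (median 1.54). The 3 that stayed at 2-fold were Gm10221 and Gm6822, copies of Atp5l with 2.95 for their family, and Gm5297, a copy of Pa2g4 with 2.10. Gm9843, a copy of Fau, had 361 CPM alone on Day00 out of 493 CPM for the pair, whose ratio was 1.86. Among protein-coding members, the family sums of Rplp2 with Wdr89 (1.74), Rpl30 with its pseudogenes (1.39), Prps1 with Prps1l3 (1.74) and Prdx1 with its pseudogenes (1.955) were under 2-fold, whereas those of Phb, Atp5l, Ly6a, Enah and Prl2c3 stayed above.

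**Figure D4:**
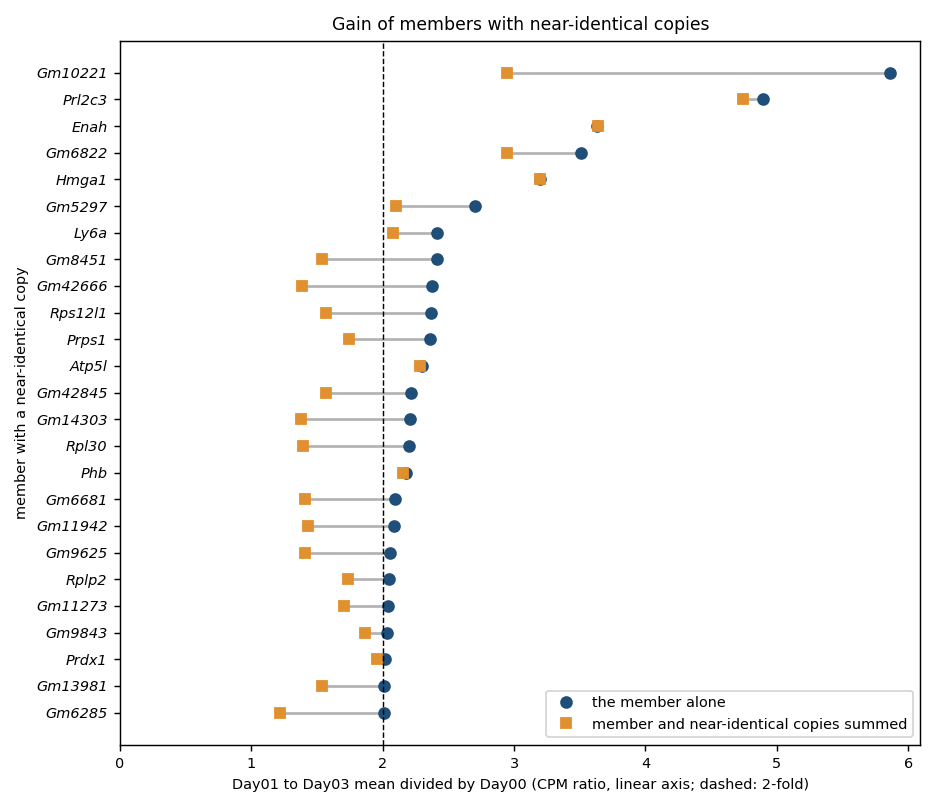
Ratio of the Day01 to Day03 mean to Day00 (horizontal axis, CPM ratio, linear) of the 25 members with near-identical copies, alone (circle) and summed with those copies (square), with a dashed line at 2-fold. In 16 of 25 members the square lies left of the line.

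Gm11407, on chr4:80002331-80003388 of GRCm38, had no copy at that limit over its last 300 bases. Over the whole transcript of 1058 bases it was 95.6% identical to Gm4076 across 912 aligned bases and 92.4% identical to the mitochondrially encoded mt-Nd5 across 1055. It had 462, 381 and 284 CPM on Day00, 1186, 1156 and 745 CPM on Day03 and 1025, 925 and 1243 CPM on Day06. Pooled mt-Nd5 had 5499 CPM on Day00, 7525 CPM on Day03 and 9114 CPM on Day06, a ratio of 1.31 early against 2.30 for Gm11407. Gm26917 lies on chr17:39843013-39846341 beside Rn18s-rs5, which RefSeq lists as a sequence related to 18S ribosomal RNA, and had 100, 84.7 and 123 CPM on Day00, 687, 1156 and 598 CPM on Day03 and 264, 369 and 235 CPM on Day04. RP23-184H3.5, for which no sequence was used here, had 80.3, 42.4 and 69.2 CPM on Day00 and 151, 185 and 166 CPM on Day06.

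Many of the copies and some coding members were highest in the same sequenced pool. Among the 40 conditions with 3 libraries, the replicate 3 library was the highest of its condition in 40 for Gm42845 and Rps12l1, in 38 for Gm10221, Gm13981 and Gm14303, and in 37 for Gm6822, Gm8451 and the sum of all members. Rps12l1, a copy of Rps12, had 60.2, 63.6 and 231 CPM in the Day00 libraries of replicates 1, 2 and 3, 548, 480 and 980 CPM on Day05 and 519, 499 and 1229 CPM in nt. Of 43 coding members, 28 were highest in replicate 3 in at most 13 of the 40 conditions. The coding members with the most were Prdx1 and Atp5l (34), Mgst1 (31) and Mt2 (29). For the pseudogene Gm11407 the replicate 3 library was the highest in 3 of 40, and for Enah and Rras2 in 2. The part of the pool in these members was not tested beyond the replicate term and the left-out replicates.

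In the transfected controls, collected on day 6, most members stood above Day00, a level the rule used and chose to be low, so that the counts and ratios to it are a description. The pooled nt level was above Day00 in 58 members and at least 2-fold in 38, with a median ratio of 2.42 against 0.719 over the genes at the level minimum. Pooled Mock was above Day00 in 53 and at least 2-fold in 29, with a median of 1.85 against 0.639. The summed level was 19890 ± 2663 CPM in nt (n = 3) and 17932 ± 1536 CPM in Mock (n = 5), against 20269 ± 194 CPM on Day06, and 2 of 3 nt and 4 of 5 Mock libraries were below every Day06 library. Single members departed from the untransfected Day05 and Day06 mean in both directions, by 0.292 to 3.22 times in nt and 0.147 to 3.08 times in Mock, where 13 members were at or under 0.5 of that mean. The lowest in Mock was Mllt3, at 22.7 CPM beside 66.05 CPM on Day00. The lowest in nt was Sfrp1, with 147, 175 and 182 CPM in the nt libraries against 635 to 769 CPM on Day06. The highest in nt was RP23-184H3.5, with 1092, 749 and 727 CPM in nt against 151 to 185 CPM on Day06. Neither of these nt comparisons overlapped. Mt2 had 559, 923 and 1544 CPM in nt and 483 to 754 CPM in Mock, and Tfrc 772, 1123 and 964 CPM in nt. Nolc1 was below its Day00 level in nt, at 40.2 CPM, Shmt2 was at 43.6 CPM beside 44.0 CPM on Day00, and Dusp14 was at 50.3 CPM beside 30.8 CPM. The controls differ from the time course by transfection and by handling, which cannot be told apart.

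Of the members, 60 passed the expression filter of the edgeR fit and Adam10 did not. Mock differed from nt in 3 of the 60 (edgeR, adjusted p under 0.05), or 5%, where 1.56% of all 3013 genes were called (1.03% higher and 0.531% lower). Ncl was lower, with 805, 694, 942, 983 and 830 CPM in Mock against 1252, 1335 and 1544 CPM in nt, without overlap (log2 fold change -0.65 ± 0.16 SE, edgeR adjusted p = 0.00723). Gm9625, a copy of Rplp0, was lower as well (-1.45 ± 0.41, edgeR adjusted p = 0.0412). Mtx2 was higher, with 442.5, 462, 259, 561 and 241 CPM against 239.7, 162 and 203 CPM (0.91 ± 0.26, edgeR adjusted p = 0.0381). No member was called in Mock by edgeR without replicate 1 or without the replicate block, or by limma on the deposited log2 values, and DESeq2 called 5.

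The mean summed level of an siRNA ran from 16122 CPM (siPrkdc) to 21037 CPM (siIrx1), against 19890 CPM in nt and 20269 CPM on Day06 of the time course, the same day of collection. It was below the Day06 mean with 31 of the 33 siRNAs and above it with siIrx1 and siMyc, a description with no test. Against nt, 95 of 1980 pairs of an siRNA and a member were called, 30 higher and 65 lower, which is 4.80%, beside 2.57% of the pairs over all genes. In siCbx7, siHat1 and siTdrd7 edgeR called 0 members, 6, 7 and 8 members had an unadjusted p under 0.05, and DESeq2 called 1, 0 and 0 and limma 0 in each. All comparisons share the 3 nt libraries, so their calls are not independent of each other.

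**Figure D5:**
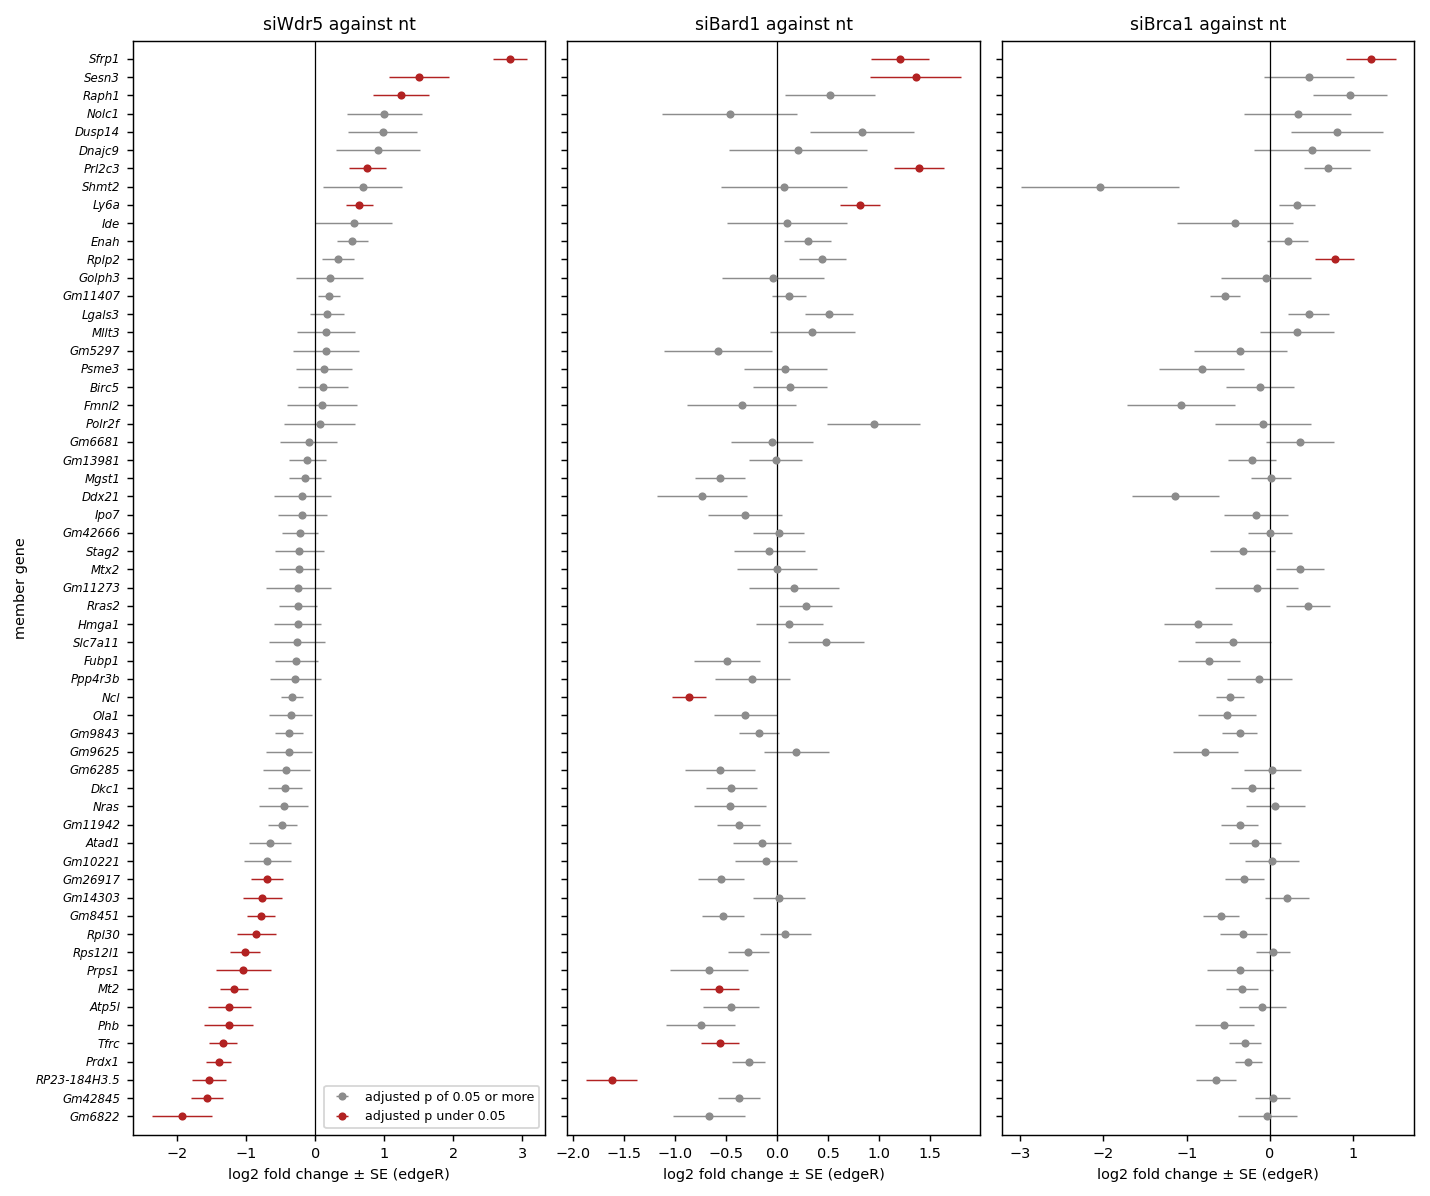
Log2 fold change against nt with its standard error (horizontal axes, edgeR) of 59 tested members in siWdr5, siBard1 and siBrca1, ordered by the value in siWdr5; red marks an adjusted p under 0.05. Sfrp1 is red and to the right in all 3 panels, and 14 members are red and to the left in siWdr5.

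The most calls were made with siWdr5, against a core subunit shared by the methyltransferase complexes of histone H3. With it, 19 of 60 members were called, 5 higher and 14 lower, which is 31.7% where 27.2% of all genes were called, so the share was close to the background. Called lower were 23.3% of members and 15.1% of all genes, and called higher 8.33% and 12.2%. The median log2 fold change of the members was -0.24, beside 0.0034 for all genes. With RLE size factors these medians were -0.068 and 0.18, and 6 members were called higher and 10 lower. Sfrp1 had 1134, 1429 and 1265 CPM with siWdr5 and 147, 175 and 182 CPM with nt, which did not overlap (2.82 ± 0.25, edgeR adjusted p = 4.49e-21). The siWdr5 libraries were also above all Day06 libraries of Sfrp1. Sesn3 (1.51 ± 0.44), Raph1 (1.24 ± 0.40), Prl2c3 (0.76 ± 0.26) and Ly6a (0.64 ± 0.20) also rose. In the same comparison 13 of 17 tested fibroblast matrix genes were higher and 0 lower, with a median log2 fold change of 1.42, beside 12.2% of all genes higher. Their part in these changes was not tested.

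The 14 members that fell with siWdr5 had a range of roles. Of the antioxidant and metal list, 2 of 18 tested genes were lower and 1 higher, with a median log2 fold change of 0.18. Prdx1 had 662, 746 and 776 CPM against 1518, 1510 and 2452 CPM in nt, without overlap (-1.40 ± 0.18, edgeR adjusted p = 6.19e-12). Tfrc had 550, 329 and 320 CPM against 772, 1123 and 964 CPM (-1.33 ± 0.20, edgeR adjusted p = 2.87e-08). Mt2 had 404, 417 and 573 CPM, and its highest library overlapped the lowest nt library at 559 CPM (-1.18 ± 0.20, edgeR adjusted p = 4.75e-07). RP23-184H3.5 had 449, 240.2 and 236 CPM against 727 to 1092 CPM (-1.54 ± 0.25, edgeR adjusted p = 1.11e-07). Phb (-1.26 ± 0.36), Atp5l (-1.25 ± 0.31), Prps1 (-1.04 ± 0.40) and Rpl30 (-0.85 ± 0.28) fell too, together with the Atp5l copy Gm6822 (-1.94 ± 0.43), the Rps7 copy Gm42845 (-1.57 ± 0.24), Rps12l1 (-1.01 ± 0.22), Gm8451 (-0.79 ± 0.21), Gm14303 (-0.77 ± 0.28) and Gm26917 (-0.71 ± 0.23). In the same comparison 38 of 68 cytoplasmic ribosomal protein genes and 15 of 50 respiratory chain genes were lower, beside the 15.1% of all genes. Sfrp1, Prdx1, Tfrc, RP23-184H3.5 and Gm42845 were called under all 10 alternatives, Gm14303 under 2, Prps1 under 1 and Rpl30 under 3. Prl2c3 and Gm26917 were called under 4 of 10. The calls of Prl2c3, Gm26917, Raph1, Sesn3 and Prps1 were lost without replicate 1, and those of Prl2c3, Gm26917, Raph1, Ly6a, Rpl30, Gm14303 and Phb without replicate 2. Without replicate 3 the calls of Sesn3, Raph1, Ly6a, Gm6822, Atp5l, Prps1, Rpl30, Rps12l1, Gm8451 and Gm14303 were lost, and 9 members were called in all.

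Bard1 and Brca1 form a ubiquitin ligase that acts in DNA repair. With siBard1, 8 of 60 members were called, 4 higher and 4 lower, or 13.3% beside 10.3% of all genes (5.54% higher and 4.78% lower). Prl2c3 rose from 199.7, 199.7 and 314 CPM in nt to 608, 425 and 954 CPM (1.39 ± 0.24, edgeR adjusted p = 4.37e-06), Sfrp1 to 362, 410.4 and 458 CPM (1.21 ± 0.28, edgeR adjusted p = 0.00129), and Ly6a to 763, 953 and 1137 CPM from 546, 512 and 517 CPM (0.81 ± 0.20, edgeR adjusted p = 0.0018). Sesn3 also rose (1.36 ± 0.44, edgeR adjusted p = 0.0288), a call held under 2 of 9 alternatives. Of the 17 fibroblast matrix genes, 9 were higher and 0 lower with siBard1 (median log2 fold change 1.02), and 5 were higher and 1 lower with siBrca1 (0.99), and their part was not tested. RP23-184H3.5 fell to 401, 308 and 203 CPM (-1.62 ± 0.25, edgeR adjusted p = 1.06e-07) and Ncl to 971, 748 and 713 CPM (-0.87 ± 0.17, edgeR adjusted p = 3.49e-05), and Mt2 (-0.57 ± 0.19) and Tfrc (-0.56 ± 0.19) fell with libraries that overlapped nt, calls held under 2 and 3 of 10 alternatives. Without replicate 3, 2 members were called, Prl2c3 and RP23-184H3.5. The calls of Mt2 and Tfrc were lost under RLE scaling, which left 4 higher and 2 lower. In the siBrca1 comparison the few Brca1 counts, 2 in nt and 4 with siBrca1, cannot show whether it was lowered. There 2 of 60 members were called, both higher, or 3.33% beside 4.22% of all genes (2.49% higher and 1.73% lower). Sfrp1 had 525, 273 and 482 CPM (1.21 ± 0.30, edgeR adjusted p = 0.00676) and Rplp2 619, 588 and 492.5 CPM against 453, 112 and 321 CPM in nt (0.78 ± 0.24, edgeR adjusted p = 0.0345), and neither call held without replicate 1 or without replicate 3.

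Pou5f1 encodes Oct4, also supplied by the cassette. With siPou5f1, 7 of 60 members were called, 4 higher and 3 lower, or 11.7% beside 5.77% of all genes (3.58% higher and 2.19% lower). Gm11407 had 236, 647 and 458 CPM against 1225, 1635 and 1278 CPM in nt (-1.55 ± 0.20, edgeR adjusted p = 3.97e-10), a call held under all 10 alternatives, and mt-Nd5 fell with it (-1.06 ± 0.14, edgeR adjusted p = 6.49e-10). Lgals3 had 107, 177 and 178 CPM against 373, 462 and 244.5 CPM (-1.04 ± 0.31, edgeR adjusted p = 0.0212), a call lost without replicate 1 or 2, and RP23-184H3.5 fell as well (-1.07 ± 0.25, edgeR adjusted p = 0.00166), a call lost without replicate 1, with 64.4 CPM in replicate 1 and 510.1 and 475 CPM in the others. Mtx2 (0.99 ± 0.27), Gm42845 (0.94 ± 0.19), Rplp2 (0.85 ± 0.24) and Rps12l1 (0.72 ± 0.19) rose, the last 3 with libraries that overlapped nt. These calls held under 2, 5, 5 and 4 of 10 alternatives. That of Mtx2 was lost with any 1 replicate left out, and Mtx2 was also higher in Mock than in nt. In the same comparison 17 of 68 ribosomal protein genes rose and 1 fell. Of the 17 fibroblast matrix genes 3 fell and 0 rose (median log2 fold change -0.63). Without replicate 1, 2 members were called. With siNcor1, against a subunit of a co-repressor complex, 9 of 60 members were called, 6 higher and 3 lower, or 15.0% beside 4.45% of all genes (3.42% higher and 1.03% lower). Rplp2 had 579.7, 533 and 586 CPM (1.09 ± 0.22, edgeR adjusted p = 0.000279), and Gm6285 (0.98 ± 0.30), Mtx2 (0.92 ± 0.27), Gm14303 (0.83 ± 0.24), Gm42845 (0.80 ± 0.19) and Mgst1 (0.71 ± 0.22) also rose, calls that held under 3 to 6 of 10 alternatives. Each of these 6 was lost with at least 1 of the 3 replicates left out, and that of Mtx2 with any of them. Enah had 208, 207 and 134 CPM against 506, 412 and 265 CPM in nt (-0.97 ± 0.28, edgeR adjusted p = 0.0239), and Gm11407 (-0.71 ± 0.18) and Ncl (-0.58 ± 0.17) fell. The calls of Enah and Ncl held under 3 of 10 alternatives and were lost with any 1 replicate left out, and that of Gm11407 held under 5. With nt and Mock together as control, the calls of Mtx2, Mgst1, Gm6285, Enah, Gm11407 and Ncl were lost. That setting left 3 members higher and 0 lower. The mean of Ncl was 852 CPM with siNcor1 and 851 CPM in Mock. Of 68 ribosomal protein genes 15 rose. Leaving out replicate 1, 2 or 3 left 3, 2 and 3 members called.

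The other 28 siRNAs gave 50 calls of members in all, at most 4 in 1 siRNA. The number was 6 without replicate 3, 22 without replicate 2, 3 without the replicate block and 2 with limma on the deposited log2 values. There were 4 calls each with siBrd8, siIrx1 and sip53, where 0.797%, 2.02% and 1.96% of all genes were called, and 3 each with siCdk1, siKmt2d, siPhf1 and siPrkdc (2.59%, 0.962%, 1.92% and 1.76%). There were 2 each with siBptf (1.16%), siEny2 (1.89%), siMtf1 (0.431%), siMyc (0.299%), siTdrd3 (0.863%), siTead2 (1.03%) and siWhsc1l1 (1.76%). A single member was called with each of siApex1 (0.697%), siEp300 (5.68%), siHdac1 (1.06%), siJarid2 (0.697%), siKmt2e (1.29%), siPrmt2 (0.199%), siPrmt5 (0.896%), siPrmt7 (0.763%), siSet (0.398%) and siSetdb1 (0.133%), and none with siCbx7 (0.365%), siHat1 (0.398%) and siTdrd7 (0.232%). Across the 33 siRNAs, 28 members were called at least once, or 46.7% beside 36.5% of all genes, and 6 in at least 5 siRNAs, or 10% beside 4.15%. Gm11407 was lower in 15 siRNAs, by -0.71 to -1.55, and differed by -0.47 in Mock, which was not called (edgeR adjusted p = 0.121). In the same 15, mt-Nd5 differed by 0.0017 to -1.06 on the log2 scale and was called in 4. Mt2 was lower in 12 siRNAs, by -0.57 to -1.18, and differed by -0.58 in Mock, which was not called (edgeR adjusted p = 0.0789). After siWdr5 the change was furthest from 0 with siPrmt5 (448.5 CPM, -1.12 ± 0.21, edgeR adjusted p = 0.000119). With siMtf1, against the metal-responsive transcription factor of metallothionein genes, it was -1.07 ± 0.25 (edgeR adjusted p = 0.0094), from 2 libraries that lack replicate 3, where Mt2 was mostly highest. Mt1 was below nt in all 12, by -0.020 to -0.99, and was called in 1. Ncl was lower in 8 siRNAs, after siBard1 most with siMyc (789 CPM, -0.82 ± 0.18, edgeR adjusted p = 0.00549), and in Mock as given above. Myc had 2 counts with siMyc and 2 in nt, which cannot show whether it was lowered. Prdx1 was lower in 7 siRNAs, after siWdr5 most with siHdac1 (929 CPM, -0.96 ± 0.19, edgeR adjusted p = 0.000317), where Hdac1 was not lower than in nt by pooled CPM. RP23-184H3.5 was lower in 6 and Rplp2 higher in 6, whose means ran from 552 CPM with siKmt2d to 568.5 CPM with siBrd8. Sfrp1 was called higher in 4 siRNAs, among them sip53 (1.23 ± 0.31, edgeR adjusted p = 0.0098). Prl2c3 was called higher in 4, among them siCdk1 (1.26 ± 0.25) and siKmt2e (1.27 ± 0.26). By edgeR 32 of the 60 tested members were called with no siRNA, among them Slc7a11, Dkc1, Nolc1, Ddx21, Birc5 and Hmga1. A missed threshold does not show that their levels were the same.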

How the data were processed

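CEL-Seq2 libraries of 3 sequenced pools, 1 per replicate, were analysed. According to the methods, reads were aligned to mm10 by Bowtie2, and the authors counted UMIs per gene symbol with the CEL-Seq2 pipeline on GENCODE vM13. The deposited counts carry no scaling. The deposited log2 table holds CPM on a log2 scale that the authors had scaled by size factors and cleared of the batch. Of 129 libraries, the 127 in both tables were used. The condition of each came from its column name. A pool has 2 Mock columns of the same name, whose order serves only to number them. For replicate 3 the log2 table has only 1 Mock column, and its correlation with both count columns (0.986 against 0.0136) decided which library counted as present in both tables.

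Against nt, edgeR 4.0.16 (R 4.3.3) ran a quasi-likelihood test on the counts with TMM, filterByExpr, a term per condition and the replicate as a block, on all 127 libraries and 3013 genes. The Benjamini-Hochberg adjustment ran over the genes of each comparison, with calls at 0.05. Same-numbered libraries share a pool, and their deviations from the condition mean had a median correlation of 0.0981, against -0.0685 for different numbers. The fit was tested on simulated data. Alternatives used DESeq2 1.42.0, limma 3.58.1, RLE scaling, other filters and controls, and left-out replicates. Positions came from GENCODE vM21 on GRCm38, copies from BLAST 2.17.0, promoters from RefSeq. Members were named by level, ratio, list, size of a called change and nearness to a limit, and others by role after their values were seen. The members and lists were chosen with earlier results of these data known. Some values of 1 member, 1 siRNA and other genes are not reported here.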

Additional observations from a re-analysis of the deposited data

Results flagged for a closer look

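In the 5 Mock libraries 62 quantities, the 61 members and their sum, were examined for a library that stands apart, by its gap to the nearest other as a share of the range, and 5 had one. Chance alone flags about 1 in 20 such groups. Gm6681, a processed pseudogene, was at 108 CPM in 1 Mock library and at 25.7 to 47.1 CPM in the others. Lgals3 was at 205.5 CPM in 1 library and at 321 to 342 CPM in the others. Phb was at 60.2 CPM beside 141 to 161 CPM, Prps1 at 25.7 CPM beside 100.3 to 120.4 CPM, and Rps12l1 at 1264 CPM beside 301 to 514 CPM. The Gm6681 and Rps12l1 values are those of replicate 3, the only Mock library of that pool in both tables. None of these 5 members was called between Mock and nt by edgeR.

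The 2 libraries that were left out, siMtf1 of replicate 3 and a Mock library of replicate 3, held 7981 and 6403 counts. The summed level of the members was 19672 CPM in the first, within the 16724 to 22954 CPM of the control libraries, and 9058 CPM in the second.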

How the results depend on the processing

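The number of members called differed with the replicate left out and with the model. The libraries held 29656 to 235292 counts, and the effect of depth on the calls was not tested. With any 1 replicate left out, the members called against nt numbered 9 to 15 for siWdr5 (19 with all), 2 to 7 for siBard1 (8), 0 to 1 for siBrca1 (2), 2 to 4 for siPou5f1 (7), 2 to 3 for siNcor1 (9), 0 to 2 for Mock (3) and 6 to 36 for the other 28 siRNAs together (50). Calls over all genes fell as well: without replicate 3 siWdr5 had 333 (821 with all) and siBard1 94 (311), and siNcor1 had 30 without the replicate block and 0 with limma (134). Among the left-out replicates, the fewest members were called without replicate 3 for siWdr5 (9), siBard1 (2) and the other siRNAs (6). For siNcor1 (2) the fewest were without replicate 2, and for siPou5f1 (2) and Mock (0) without replicate 1. Without the replicate block, 13 members were called for siWdr5, 5 for siBard1, 1 for siBrca1, 2 for siPou5f1, 0 for siNcor1, 0 for Mock and 3 for the other siRNAs. With a low-count filter of only 1 count in 3 libraries the counts were 12, 4, 0, 3, 1 and 1 for siWdr5, siBard1, siBrca1, siPou5f1, siNcor1 and Mock, with more genes tested. With limma on the deposited log2 values they were 5, 0, 1, 3, 0 and 0, and 2 for the other siRNAs. With nt and Mock together as control, 13 members were called for siBard1, 1 for siBrca1 and 3 for siNcor1. With the compared conditions alone, 5 were called for siBrca1, 2 for siPou5f1 and 1 for Mock, and DESeq2 called 5 for Mock. The cause was not tested. The counts of members under RLE size factors stayed within 1.5 times of the reported ones in all 7 results.

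The number of members was 40 with TMM-scaled totals, 211 at 1.5-fold, 14 at 3-fold, 163 at 50 CPM, 23 at 200 CPM and 35 when the late level had to reach the early one. It was 76 to 101 with a replicate left out, 101 without replicate 3, of which 36 were among the 61, whereas 51 of the 61 were chosen without replicate 1 and 51 without replicate 2. Summing families of near-identical copies, an alternative chosen after seeing the data, left 45.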
